A study of Homo sapiens with 34 samples.

Results

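The RGS genes encode regulators of G protein signalling, and 8 of them, RGS1, RGS2, RGS10, RGS13, RGS14, RGS16, RGS18 and RGS19, were followed across 34 established human B-cell lymphoma cell lines. They were taken by gene name from a table of 31975 genes, each name gave 1 row, and all 8 were among the 22167 genes that passed the filter on low values. The series concerned radioligands that bind CXCR4, a chemokine receptor, in mantle cell lymphoma. By their labelled pathology the lines comprised 11 of mantle cell lymphoma (MCL) and 3 of Burkitt lymphoma (BL). Diffuse large B-cell lymphoma (DLBCL) was represented by 14 lines of germinal centre B-cell-like (GCB) type and 6 lines of activated B-cell-like (ABC) type. No line carried a treatment in the labels, and each line was a single library of total RNA, so the lines of a pathology served as its replicates. P-values therefore measure the spread between lines, with no repeat culture of any line, and the labels do not say whether any lines share a patient. The most alike libraries, SP-49 and SP-53, correlated at 0.979 over genes, and no 2 libraries were identical.

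An RGS protein binds an active, GTP-loaded G protein alpha subunit and speeds up GTP hydrolysis, which ends the signal that a receptor at the cell surface started. In B cells these receptors include those for chemokines and for sphingosine 1-phosphate, which position cells in the follicle and the germinal centre. RGS1, RGS2, RGS13, RGS16 and RGS18 are small proteins of the R4 subfamily, RGS10 and RGS14 belong to the R12 subfamily, and RGS19, also called GAIP, belongs to the RZ subfamily. RGS13 is best known from germinal centre B cells and mast cells, RGS18 from platelets and megakaryocytes, and RGS1 from activated B and T cells.

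The values were variance-stabilised read counts on a log2 scale, with a floor of 4.55 for genes that had 0 reads. Inverting the transform gave library sizes between 2.55 and 165 M reads (M for 1e+06). A second class of 9 libraries was defined from the values by 0 recovered reads in both ZNF593 and EMC6, and it held 8 GCB DLBCL libraries of 2.55 to 4.84 M reads and 1 ABC DLBCL library, NU-DUL-1, of 22.7 M. The other 25 libraries, the first class, held 22.6 to 165 M reads and comprised 6 GCB DLBCL, 5 ABC DLBCL, all 11 MCL and all 3 BL lines. Results are given over all 34 lines and, where it matters, over the first class alone. The 5 B-cell markers MS4A1, CD79A, CD79B, PAX5 and CD22 summed to group medians of 2008 reads per 1e+06 reads (RPM) in MCL, 3269 in GCB DLBCL, 2193 in ABC DLBCL and 2934 in BL. CCND1, the cyclin gene activated by translocation in MCL, lay at 12.59 or higher in all 11 MCL lines and at 10.43 or lower in the other lines. SOX11, the other MCL marker read, was above 9 in 10 of the 11 MCL lines and at 4.84 in the lowest. In the lines of the other pathologies SOX11 was at 8.39 or lower. Marker sums of other cell types reached 705 RPM for T cells and 467 RPM for stroma, both in GCB DLBCL lines, and 6.03 RPM for myeloid cells, and their part in the results was not tested.

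Among the 8 genes, 5 lie on chromosome 1, and 4 of these, RGS18, RGS1, RGS13 and RGS2, lie on the same strand within 653.8 kb, with RGS21 between RGS18 and RGS1 (RefSeq, build GRCh38.p14). RGS18 spans chr1:192158462-192185815, RGS1 chr1:192575773-192580024, RGS13 chr1:192636147-192660311 and RGS2 chr1:192809039-192812275. RGS16 lies 9.55 Mb away at chr1:182598623-182604389. RGS14 lies at chr5:177357924-177372596, RGS10 at chr10:119499817-119542719 and RGS19 at chr20:64073181-64079964. The span of RGS1 overlaps that of an annotated long non-coding RNA, LOC105371664, and the microRNA gene MIR6813 lies in RGS19. Strand-specific counting is not given in the sources used here, so reads of such overlapping genes cannot be told apart. The 150 bases before the annotated start of the 4 neighbouring genes are shown because these genes differ in base composition as well as in how widely they were expressed across the lines. They are printed 5′ to 3′ on the plus strand from RefSeq, with CG dinucleotides in capitals, and cover chr1:192158312-192158461 for RGS18, chr1:192575623-192575772 for RGS1, chr1:192635997-192636146 for RGS13 and chr1:192808889-192809038 for RGS2.
RGS18: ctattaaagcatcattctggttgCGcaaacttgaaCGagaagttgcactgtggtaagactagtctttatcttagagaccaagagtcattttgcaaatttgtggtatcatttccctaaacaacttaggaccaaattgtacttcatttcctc
RGS1: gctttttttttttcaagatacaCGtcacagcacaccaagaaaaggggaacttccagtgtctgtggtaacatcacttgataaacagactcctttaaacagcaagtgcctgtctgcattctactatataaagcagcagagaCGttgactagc
RGS13: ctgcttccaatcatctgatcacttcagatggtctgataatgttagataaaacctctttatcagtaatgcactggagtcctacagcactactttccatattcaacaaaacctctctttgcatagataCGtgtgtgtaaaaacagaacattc
RGS2: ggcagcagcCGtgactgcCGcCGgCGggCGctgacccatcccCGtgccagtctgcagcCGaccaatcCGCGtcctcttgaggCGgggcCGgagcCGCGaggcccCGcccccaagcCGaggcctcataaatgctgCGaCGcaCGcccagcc

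The printed stretch of RGS2 holds 18 CG dinucleotides, that of RGS18 and of RGS1 holds 2 each, and that of RGS13 holds 1. Over the 250 bases before the start, the GC content was 32.0% for RGS13, 34.8% for RGS18 and 39.2% for RGS1, against 72.8% for RGS2. RGS13 stood at the 2.64th percentile of GC content among 35116 promoter entries, RGS18 at the 5.27th, RGS1 at the 11.4th and RGS2 at the 85.3rd. For the members elsewhere, GC content was 68.4% for RGS16 and 56.8% for RGS14, and each of RGS10 and RGS19 had 2 annotated starts, at 77.2% and 46.0% and at 72.8% and 80.4%. The letters TATAAA, a core promoter element, occurred on either strand in the RGS1 window and in none of the other 9 member windows, and 10.7% of all promoter entries hold them. TTTGCA, the core of the octamer bound by OCT factors, occurred in the windows of RGS13 and RGS18 (12.6% of all entries). The full octamer ATTTGCAT occurred in none of the 10 member windows (1.63% of all entries), nor did TTCNNNGAA, the core shared by STAT and BCL6 sites (6.57%). Such matches describe letters and not bound sites.

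All 8 genes varied more between lines than most genes did. Over the 25 first-class lines the SD was 3.29 for RGS13, 2.53 for RGS1, 1.99 for RGS18 and 1.82 for RGS16, where the median of all tested genes was 0.592. For RGS10, RGS2, RGS14 and RGS19 it was 1.35, 1.12, 1.08 and 1.04. In the ranking of all tested genes by this SD, RGS13 stood at the 99.8th percentile, RGS1 at the 98.7th, RGS18 at the 95.6th, RGS16 at the 94.0th and RGS19, the lowest of the 8, at the 79.3rd. The 3 members with the largest SD, RGS13, RGS1 and RGS18, held 1 to 3 CG dinucleotides in the 250 bases before their single annotated start. One of the 2 starts of RGS10 also held 3, and its other start 26. RGS16, next in SD at 1.82, held 22 before its single start. RGS2 held 28, RGS14 held 13, and the 2 starts of RGS19 held 20 and 36. The ratio of observed to expected CG dinucleotides, a measure other than the count, was 0.157 for RGS13, 0.265 for RGS18 and 0.316 for RGS1. It was 0.778 for RGS16, 0.863 for RGS2 and 0.720 for RGS14. For the 2 starts of RGS10 it was 0.236 and 0.699, and for those of RGS19 0.605 and 0.896. Over the 11755 tested genes with a promoter entry, the median SD was 0.782 among the 2939 with the lowest ratio and 0.627 among the 2943 with the highest.

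**Figure D1:**
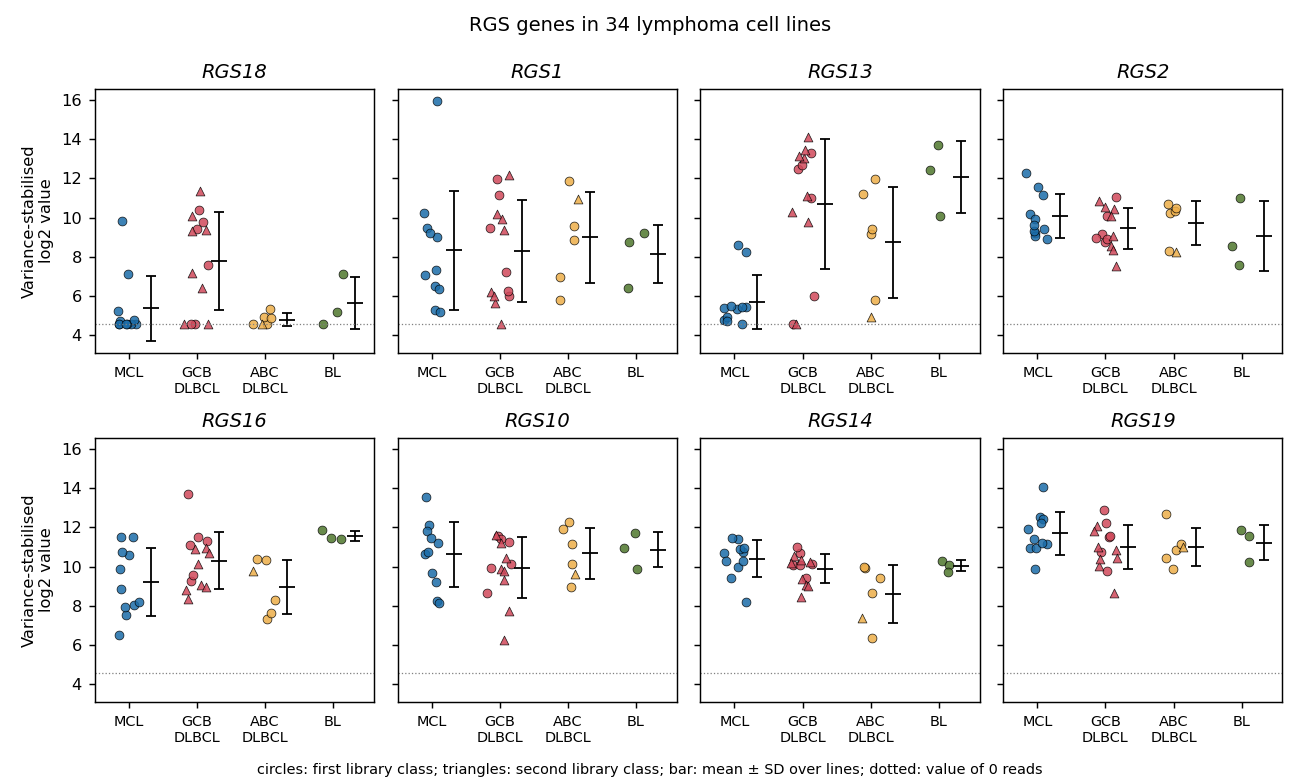
Variance-stabilised log2 value (vertical axis) of the 8 RGS genes in each of 34 lines by pathology, with the mean ± SD over lines beside the points. RGS13 is at 8.62 or lower in all 11 MCL lines, while RGS18 is above 9 in 7 GCB DLBCL lines and in 1 MCL line.

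RGS13 was low in MCL and high in most lines of germinal centre type. It limits signalling through Gi- and Gq-coupled receptors, CXCR4 and CXCR5 among them. In MCL it ranged from 4.55 in Mino over a median of 5.37 to 8.62 in HBL-2, and 9 of the 11 lines had 0 to 29 reads of it in libraries of at least 60.1 M reads. The 2 exceptions were HBL-2 with 1201 reads and JVM2 with 273 reads and a value of 8.23. In the 3 BL lines it was 10.06 in Daudi, 12.42 in Raji and 13.71 in Ramos, all above every MCL line. In GCB DLBCL it ranged from 4.55 over a median of 11.78 to 14.11 in DB, with 11 of 14 lines above 9. The low GCB DLBCL lines were Pfeiffer and DOHH-2, each with 0 reads, and Toledo at 6.02 with 63 reads. Of the GCB DLBCL lines, these 3 fell within the range of the MCL lines. The ABC DLBCL lines fell on both sides, with HBL-1 at 11.96, SU-DHL-8 at 11.18, OCI-Ly3 at 9.43 and OCI-Ly10 at 9.14 above all MCL lines, and MD903 at 5.80 and NU-DUL-1 at 4.91 among them. Each value is the average of a culture, so fewer expressing cells and less RNA per cell cannot be told apart.

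The mean of RGS13 was 12.06 ± 1.85 in BL (SD, n = 3), 10.68 ± 3.32 in GCB DLBCL (n = 14), 8.74 ± 2.84 in ABC DLBCL (n = 6) and 5.71 ± 1.38 in MCL (n = 11). In this order BL and GCB DLBCL differed by 1.39 and GCB and ABC DLBCL by 1.94, each less than the larger SD of the pair, and ABC DLBCL and MCL differed by 3.03, more than their SDs. Against the mean of the other pathologies, RGS13 was lower in MCL by a log2 difference of -4.78 ± 0.98 (SE), with a limma adjusted p of 0.0028, and all 11 MCL lines lay below the median of the other 23. RGS13 was the only 1 of the 8 members past the adjusted threshold of 0.05 in that comparison, in which 4.46% of all tested genes passed. Over the first class the difference was -4.81 ± 0.95 (limma adjusted p 0.0058), and there again 1 member of 8 passed, beside 3.97% of all genes. A limma-voom fit of the recovered reads gave an adjusted p of 0.0537, just beyond the threshold. Of the MCL lines only HBL-2 and JVM2 lay above the filter level for RGS13. The gene was thus kept by the filter through the other pathologies, where it is higher. With that limit, the p-values of RGS13 in all comparisons are given as a description beside the values of each line.

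Against GCB DLBCL alone, RGS13 in MCL was lower by -4.97 ± 1.01, with a limma adjusted p of 0.0013. That contrast called 23.7% of all tested genes, and 2 of the 8 members, RGS13 and RGS18, so the members' share was near the background. Over the first class, where 2.83% of all genes passed, the difference in RGS13 was -4.29 ± 1.17 with an adjusted p of 0.0483 in limma, and RGS13 was the 1 member called. The limma-voom fit over all lines gave an adjusted p of 0.06 here. Against BL the difference was -6.35 ± 1.63, with a limma adjusted p of 0.0438 and no overlap between the 11 MCL and 3 BL values. There 1 of 8 members passed beside 1.17% of all genes, and over the first class 1 of 8 beside 1.54%. With 3 BL lines this call was fragile: it was lost without any 1 of GRANTA519, Jeko-1, MAVER-1, Mino, SP-49, SP-53, UPN1, Z-138, Raji, Ramos or Daudi, with adjusted p up to 0.24 in limma. It was also lost among the lines marked re-analysed (adjusted p 0.139), without the filter on low values (0.056) and in the limma-voom fit (0.0749). Against ABC DLBCL the difference of -3.03 ± 1.27 did not pass (limma adjusted p 0.337).

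**Figure D2:**
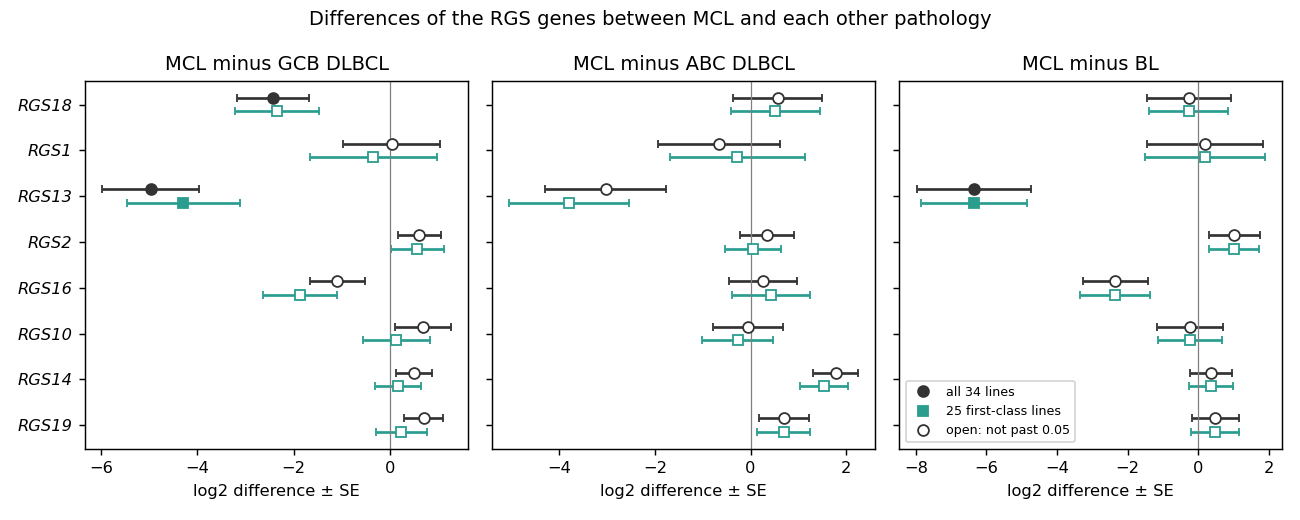
Log2 difference of each RGS gene (MCL minus GCB DLBCL, ABC DLBCL or BL, horizontal axis, bars for the SE) over all 34 lines and over the 25 first-class lines. Filled symbols passed the adjusted threshold: RGS13 and RGS18 against GCB DLBCL over all lines, RGS13 alone over the first class, and RGS13 against BL in both.

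RGS18 was detected at more than a few reads in a minority of lines, most of them GCB DLBCL. In 22 of the 34 lines it had at most 10 reads, and in 14 of these it had none. A mark of 10 reads stands for a higher value in a shallow library. Among the second-class GCB DLBCL libraries, OCI-Ly7 was at 7.16 from 10 reads and DOHH-2 at 6.41 from 5 reads. It exceeded 9 in 8 lines: DB at 11.34, SU-DHL-10 at 10.40, Karpas422 at 10.06, the MCL line HBL-2 at 9.84, SU-DHL-4 at 9.77, HT at 9.42, WSU-DLCL2 at 9.36 and SU-DHL-6 at 9.34. Below these, SU-DHL-5 was at 7.60 with 408 reads, and Pfeiffer, Toledo, NU-DHL-1 and OCI-Ly1 had 0 reads, so the GCB DLBCL lines themselves divided. In MCL the median was the floor of 4.55, with 6 of 11 lines at 0 reads, HBL-2 with 3015 reads and REC-1 next at 7.12 with 200 reads. No ABC DLBCL line had more than 18 reads. The BL values were 4.55 in Raji, 5.20 in Ramos and 7.12 in Daudi.

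The mean of RGS18 was 7.79 ± 2.48 in GCB DLBCL (n = 14), 5.63 ± 1.34 in BL (n = 3), 5.36 ± 1.67 in MCL (n = 11) and 4.80 ± 0.32 in ABC DLBCL (n = 6), and no neighbours in this order differed by more than the larger of their SDs. The difference of MCL from GCB DLBCL was -2.43 ± 0.74 with a limma adjusted p of 0.0191, and 10 of 11 MCL lines lay below the GCB DLBCL median. Over the first class the size was similar, -2.35 ± 0.87, and the limma adjusted p was 0.152, so the call did not hold there. It was 0.173 with library class as a covariate. Of the MCL lines only HBL-2 and REC-1 lay above the filter level for RGS18, and no ABC DLBCL line did. Most lines above that level were GCB DLBCL, where RGS18 is higher, so its p-values are likewise given as a description. The 8 GCB DLBCL libraries of the second class are also the shallowest, and their part in the call was not tested beyond these fits. ABC DLBCL differed from GCB DLBCL by -2.99 ± 0.90, which did not pass (limma adjusted p 0.103). Markers of platelets and megakaryocytes, where RGS18 is well known, summed to medians of 1.99 RPM in GCB DLBCL, 0.164 in MCL, 0.436 in ABC DLBCL and 0.0974 in BL, over the 2 of 5 listed markers used here (ITGA2B and GP1BA). Their highest sum was 9.23 RPM, in GCB DLBCL, and their part in the result was not tested.

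RGS18 and RGS13 were the members most alike in pattern. Their Pearson correlation was 0.61 over 34 lines and 0.49 over the 25 first-class lines, given as a description since lines share pathology and library class. In the 8 lines with RGS18 above 9, RGS13 ranged from 8.62 to 14.11 with a median of 12.86, and 7 of the 8 lines were above 9. In the 22 lines with at most 10 reads of RGS18, whose RGS18 values reached 7.16, RGS13 ranged from 4.55 to 13.71, with 8 lines above 9. High RGS13 was also seen with at most 10 reads of RGS18, as in Raji, Ramos, HBL-1 and OCI-Ly1. HBL-2, the 1 of the 8 lines below 9 in RGS13, had the highest value of both genes among the MCL lines. RGS1, whose span ends 56.1 kb before that of RGS13, did not share this pattern: its correlation with RGS13 was 0.04 over 34 lines and 0.22 over the first class.

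**Figure D3:**
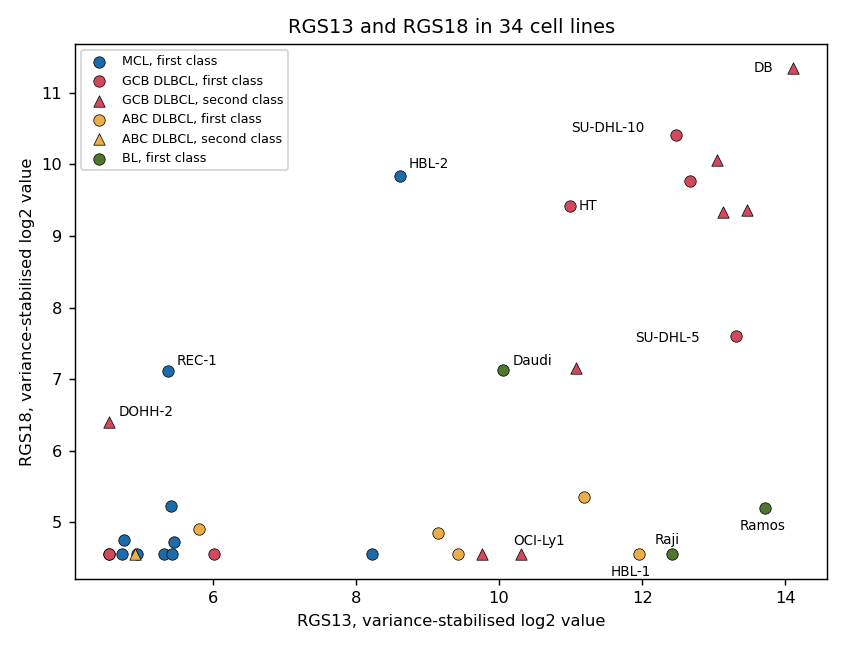
RGS18 against RGS13, both as variance-stabilised log2 values, with 1 point per line coloured by pathology and triangles for the second library class. The 8 lines with RGS18 above 9 have RGS13 at 8.62 or higher, while lines at the RGS18 floor of 4.55 run from 4.55 to 12.42 in RGS13.

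RGS1, which blunts the response of B cells to chemokines, varied widely within every pathology, and no difference between pathologies was called. It ranged in MCL from 5.20 in REC-1 over a median of 7.31 to 15.95 in JVM2, in GCB DLBCL from 4.55 in OCI-Ly7 over 8.28 to 12.15 in NU-DHL-1, and in ABC DLBCL from 5.77 in MD903 over 9.20 to 11.85 in SU-DHL-8. The BL values were 6.43 in Daudi, 8.75 in Raji and 9.22 in Ramos. All 4 groups overlapped. JVM2 stood apart with 68037 reads, or 1038 RPM, 5.74 above the next MCL line, GRANTA519 at 10.21, and above every other line, whose highest value was 12.15. Without JVM2 the MCL mean fell from 8.33 ± 3.05 (n = 11) to 7.56 ± 1.80 (SD, n = 10), against 8.29 ± 2.58 in GCB DLBCL, 8.99 ± 2.31 in ABC DLBCL and 8.13 ± 1.49 in BL. The limma F test across the pathologies gave 0.13 with an adjusted p of 0.959 for RGS1.

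RGS2, a preferential inhibitor of Gq, was read in all 34 lines and differed little between pathologies. Its means were 10.06 ± 1.12 in MCL (n = 11), 9.71 ± 1.14 in ABC DLBCL (n = 6), 9.45 ± 1.05 in GCB DLBCL (n = 14) and 9.04 ± 1.78 in BL (n = 3), with gaps between neighbours of 0.41 or less. The lowest value was 7.54 in DOHH-2, from 16 reads, and the highest 12.29 in Jeko-1. The BL values of 7.57 in Daudi, 8.54 in Raji and 11.02 in Ramos covered most of the range of the other groups. The limma F statistic was 0.968 with an adjusted p of 0.571. RGS1 and RGS2, which flank RGS13 on either side, correlated at 0.49 over the first class and 0.41 over all lines, and JVM2 was high in both, with RGS2 at 11.56.

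RGS16, an R4 member induced by activation in lymphocytes and acting on Gi and Gq, was highest on average in BL. The 3 BL values were close together, 11.39 in Daudi, 11.46 in Ramos and 11.87 in Raji, and lay above all 6 ABC DLBCL values, which ran from 7.31 in HBL-1 over a median of 9.05 to 10.36 in MD903. In MCL RGS16 ranged from 6.52 in HBL-2 over 8.87 to 11.53 in Mino, and in GCB DLBCL from 8.33 in OCI-Ly1 over 10.41 to 13.72 in Toledo, which held 32060 reads. The means were 11.57 ± 0.26 in BL, 10.30 ± 1.44 in GCB DLBCL, 9.22 ± 1.72 in MCL and 8.96 ± 1.38 in ABC DLBCL, with no neighbours apart by more than the larger SD. BL exceeded ABC DLBCL by 2.62 ± 1.0 (limma adjusted p 0.391), and MCL minus BL was -2.36 ± 0.92 (0.257). Neither passed, although the BL and ABC DLBCL values did not overlap. The limma F statistic was 3.50 with an adjusted p of 0.107, and 0.035 in the limma-voom fit. Toledo, at the top for RGS16, had 0 reads of RGS18, and HBL-2, at the bottom, had 3015. Across lines RGS16 and RGS18 showed no relation, with a Pearson correlation of 0.02 over 34 lines and -0.02 over the first class.

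RGS14, an R12 member that also binds Ras proteins and inactive Gi alpha, was lowest in ABC DLBCL. There it was 6.36 in SU-DHL-8, 7.38 in NU-DUL-1, 8.63 in HBL-1, 9.40 in OCI-Ly10, 9.94 in MD903 and 9.98 in OCI-Ly3. In MCL it ranged from 8.19 in UPN1 over a median of 10.70 to 11.47 in JVM2, with 10 of 11 lines above the ABC DLBCL median. In GCB DLBCL it ranged from 8.45 in SU-DHL-6 over 10.11 to 10.98 in SU-DHL-4, and the BL values were 9.73, 10.07 and 10.29. The means were 10.39 ± 0.94 in MCL, 10.03 ± 0.28 in BL, 9.89 ± 0.72 in GCB DLBCL and 8.61 ± 1.47 in ABC DLBCL, and the ranges of MCL and ABC DLBCL overlapped. RGS14 passed the limma F test across pathologies (F 4.99, adjusted p 0.0458), as RGS13 (F 9.96, 0.0044) and RGS18 (F 5.48, 0.036) did. That made 3 of 8 members beside 13.2% of all tested genes, and over the first class 1 of 8, RGS13 (limma adjusted p 0.0242), beside 3.55%. For RGS14 and RGS18 the F test did not pass there (0.229 and 0.228 in limma). The F test call of RGS18 was also lost in 2 other fits and without any 1 of OCI-Ly3, DB, Karpas422, SU-DHL-10, SU-DHL-4, SU-DHL-6, WSU-DLCL2, Jeko-1, Mino or SP-49 (adjusted p up to 0.0656 in limma). That of RGS14 was lost in 4 other fits and without any 1 of 20 lines, with adjusted p up to 0.144 in limma. These were the ABC DLBCL lines HBL-1, NU-DUL-1 and SU-DHL-8, the GCB DLBCL lines DB, DOHH-2, Karpas422, OCI-Ly1, OCI-Ly7 and WSU-DLCL2, the BL lines Raji and Ramos, and all MCL lines but MAVER-1 and UPN1.

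In the pairwise limma fit MCL exceeded ABC DLBCL in RGS14 by 1.78 ± 0.46, with an adjusted p of 0.0635, so no member passed in that contrast, in which 0.69% of all genes did. Over the lines marked re-analysed it passed (adjusted p 0.0208 in limma), as it did without UPN1 (0.0172), MD903 (0.0333) or OCI-Ly3 (0.0444). Over the first class it was 1.53 ± 0.51 (limma adjusted p 0.155). ABC DLBCL minus GCB DLBCL was -1.28 ± 0.45 (0.171), with all 6 ABC DLBCL lines below the GCB DLBCL median. Between the other pathologies 0 of 8 members passed in limma: ABC against GCB DLBCL called 0.726% of all genes, BL against GCB DLBCL 0.153% and BL against ABC DLBCL 0.117%. At an unadjusted p below 0.05 these 3 contrasts held 2, 0 and 2 members, and MCL against ABC DLBCL held 2. The share of all genes at that unadjusted level was not taken, so these counts are not read as a result. Where members had 0 calls in these 4 contrasts over all lines, limma-voom gave 0 as well.

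RGS10, a small R12 member acting on Gi alpha, was read in every line. Its lowest value was 6.27 in OCI-Ly1, from 6 reads, and its highest 13.54 in JVM2, from 12781 reads. The means were 10.85 ± 0.90 in BL, 10.67 ± 1.32 in ABC DLBCL, 10.62 ± 1.67 in MCL and 9.94 ± 1.56 in GCB DLBCL, and the largest gap between neighbours was 0.68. Within GCB DLBCL the second-class libraries averaged 9.53 and the first-class libraries 10.48. MCL minus GCB DLBCL was 0.68 ± 0.58 over all lines (limma adjusted p 0.40) and 0.14 ± 0.70 over the first class.

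RGS19, which acts on Gi alpha and resides on membranes, was the member with the smallest SD. Its means were 11.69 ± 1.10 in MCL, 11.22 ± 0.88 in BL and 10.99 ± 1.12 in GCB DLBCL, and in ABC DLBCL it ran from 9.90 in OCI-Ly10 over a median of 10.92 to 12.71 in SU-DHL-8. The extremes were REC-1 at 14.04, with 35043 reads, and OCI-Ly1 at 8.63, with 56 reads. The limma F statistic was 1.10 with an adjusted p of 0.52. OCI-Ly1 was thus the lowest of all lines for both RGS10 and RGS19, in a library of the second class.

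**Figure D4:**
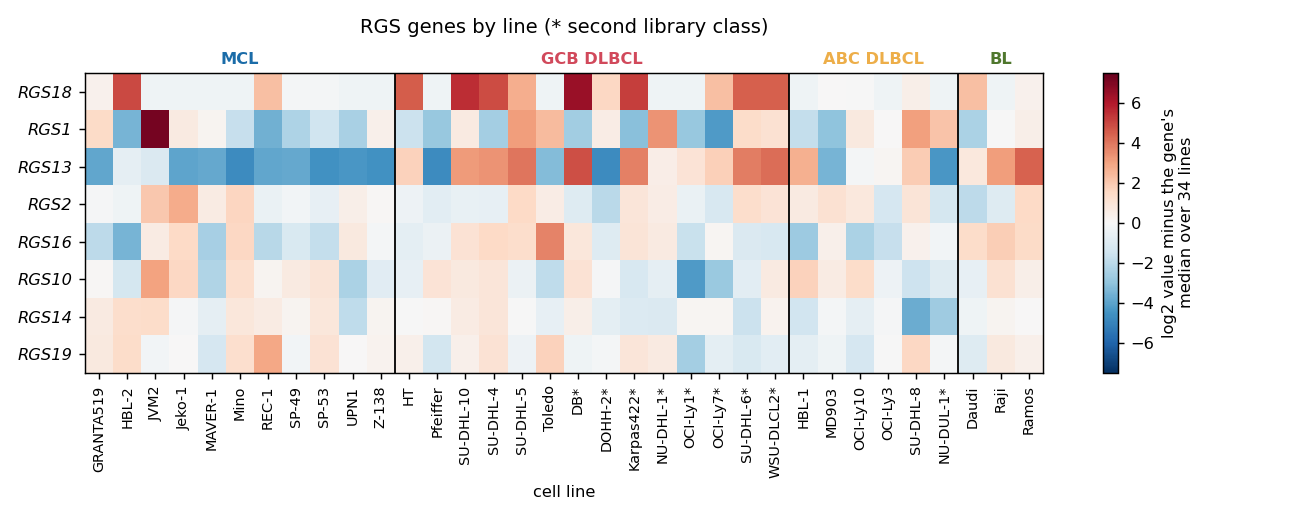
Deviation of each RGS gene from its median over 34 lines (colour, log2 units) for every line, with asterisks on second-class libraries. RGS13 is blue across all MCL columns, RGS18 exceeds 9 in 8 columns, the deepest red of its row, and JVM2 holds the strongest RGS1 value, 15.95.

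The genes whose values followed each member most closely were ranked by Pearson correlation over the 25 first-class lines, with the value over all 34 lines given second. For RGS13 they were INSIG1 (0.864 and 0.417), LOXL2 (0.819 and 0.759) and PDGFD (0.813 and 0.782). For RGS18 they were ANK3 (0.847 and 0.703), the non-coding RP11-320N21.2 (0.842 and 0.813) and an entry that the gene names list as MIR3150B (0.828 and 0.747). For RGS19 the first was OPRL1 (0.801 and 0.744), a receptor gene that starts 118 bases beyond the span of RGS19 at chr20:64080082-64100643, followed by HUS1 and LYL1. For RGS10 they were DUSP2 (0.857 and 0.726), NDUFB1 (0.852 and 0.436) and OST4 (0.848 and 0.425), and for RGS16 PRPS1 (0.817 and 0.689), CDKN2A (0.756 and 0.587) and the pseudogene PRADC1P1. RGS14 was followed by SNX10 (0.759 and 0.51), RINL and RUNX3, RGS1 by PTPN14 (0.748 and 0.576), PEX5L and RP11-403I13.8, and RGS2 by 3 non-coding entries, RP11-474P2.5 first (0.74 and 0.362). Where the second value is far below the first, as for INSIG1 and NDUFB1, the likeness depended on leaving out the second class. All these correlations are a description. The genes were picked as the highest among all tested genes, which raises the values, and lines share pathology.

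The partners of the RGS proteins were read from fixed lists. Of 16 other RGS-domain genes, 13 passed the filter, and in MCL against GCB DLBCL 1 was higher and 3 were lower by the limma test, beside the 23.7% of all tested genes called in that contrast. RGS12, a large R12 member, was higher at 9.57 ± 1.30 in MCL against 6.81 ± 1.37 in GCB DLBCL, a difference of 2.77 ± 0.57 (limma adjusted p 0.0014). This was 2.70 ± 0.77 over the first class and did not pass (0.0568 in limma). Against the mean of the other pathologies RGS12 passed over all lines (limma adjusted p 0.0046) and over the first class (0.0221). MCL minus ABC DLBCL in RGS12 was 1.96 ± 0.71 and did not pass (limma adjusted p 0.256). MCL minus BL was 2.90 ± 0.91, which did not pass either (0.118 in limma). In MCL against GCB DLBCL, RGS9 was lower by -1.88 ± 0.63, RGS8 by -1.54 ± 0.55 and RGS17 by -1.01 ± 0.37. Of these 3, RGS8 alone passed over the first class (-1.92 ± 0.43, limma adjusted p 0.0179), RGS9 was -2.36 ± 0.66 (0.0525), and RGS17 turned to 0.10 ± 0.21 (0.874). RGS8 had at most 2 reads in any MCL line. It passed the filter on low values through the other groups, where it is higher, so its test is not read further. RGS9 was also lower in ABC than in GCB DLBCL, by -3.08 ± 0.76 (limma adjusted p 0.0467).

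Of 13 alpha subunit genes, the direct targets of RGS proteins, 12 were tested. GNAI2, which couples chemokine receptors, was at 13.76 ± 0.57 in MCL, 13.66 ± 0.52 in GCB DLBCL, 13.91 ± 0.44 in ABC DLBCL and 13.48 ± 0.69 in BL, and it passed no contrast. GNA13, which couples to RhoA and confines germinal centre B cells, was lower in MCL than in GCB DLBCL, by -1.59 ± 0.28 (limma adjusted p 0.00039) and by -1.47 ± 0.21 over the first class (0.0005). Its values ran from 11.07 over 11.86 to 12.39 in MCL and from 11.42 over 13.36 to 14.75 in GCB DLBCL. MCL minus ABC DLBCL in GNA13 was -0.41 ± 0.36 and did not pass (limma adjusted p 0.795). ABC minus GCB DLBCL was -1.17 ± 0.34 over all lines (0.0942 in limma) and -1.38 ± 0.25 over the first class, where it passed (0.0358). GNA11, of the Gq class, was higher in MCL by 1.32 ± 0.46 (limma adjusted p 0.0369), and over the first class by 0.57 ± 0.55 (0.658), which did not pass. Of 13 beta and gamma subunit genes 12 were tested and 0 passed in MCL against GCB DLBCL in limma, beside 23.7% of all tested genes. At an unadjusted p below 0.05 there was 1, and limma-voom called 1. The shares of all genes in those 2 settings are not given here, so these counts are not read as a result.

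Among 17 receptor genes known from B cells 16 were tested, and in MCL against GCB DLBCL 5 were higher and 2 lower, beside the 23.7% called among all tested genes. S1PR1, which draws lymphocytes out towards blood and lymph, was higher by 3.90 ± 0.69 (limma adjusted p 0.00034), and S1PR2, the GNA13-coupled receptor that keeps B cells in the germinal centre, was lower by -3.44 ± 0.61 (0.00036). MCL minus ABC DLBCL in S1PR1 was 1.21 ± 0.86 and did not pass (limma adjusted p 0.711). ABC minus GCB DLBCL in S1PR1 was 2.69 ± 0.83, which did not pass either (0.116 in limma). S1PR2 was 7.74 ± 1.23 in MCL and 6.97 ± 1.41 in ABC DLBCL, against 11.17 ± 1.96 in GCB DLBCL and 11.79 ± 0.38 in BL, and MCL differed from BL by -4.05 ± 0.98 (limma adjusted p 0.0323). GPR183, CCR7, S1PR4 and PTGER4 were the other 4 that were higher, by 3.57, 4.37, 3.11 and 2.67, and P2RY8, a further GNA13-coupled receptor, was lower by -1.32 ± 0.41. In the first class S1PR1 and GPR183 passed as higher and S1PR2 as lower, while CCR7, S1PR4, PTGER4 and P2RY8 kept their direction without passing, at 3.78, 2.95, 3.08 and -1.22.

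Of 16 receptor kinase, arrestin and G protein modulator genes, all tested, 2 were higher and 2 lower in MCL than in GCB DLBCL, a share near the 23.7% called among all tested genes. GPSM1, whose GoLoco motifs hold Gi alpha in the GDP form, was higher by 3.50 ± 0.69 (limma adjusted p 0.0011) and over the first class by 3.30 ± 0.89 (0.0457). In MCL it also exceeded BL by 4.93 ± 1.11 (0.0199 in limma). MCL minus ABC DLBCL in GPSM1 was 1.40 ± 0.87 and did not pass (limma adjusted p 0.627). ARRB1, an arrestin, was the other gene counted as higher, with a mean of 6.62 ± 1.70 in MCL (n = 11), 4.73 ± 0.38 in GCB DLBCL (n = 14) and 4.90 ± 0.30 in BL (n = 3), and 0 reads in all 6 ABC DLBCL lines. It exceeded the filter level in 8 MCL lines and 1 GCB DLBCL line, so it was kept through the group where it is high and its test is not read further. In the first class it passed against neither GCB nor ABC DLBCL (limma adjusted p 0.137 and 0.12). ARHGEF12 and CCDC88C were lower, by -1.05 ± 0.35 and -0.82 ± 0.25. Both calls were lost over the first class, at -0.46 ± 0.36 and -0.43 ± 0.29 (limma adjusted p 0.564 and 0.495).

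**Figure D5:**
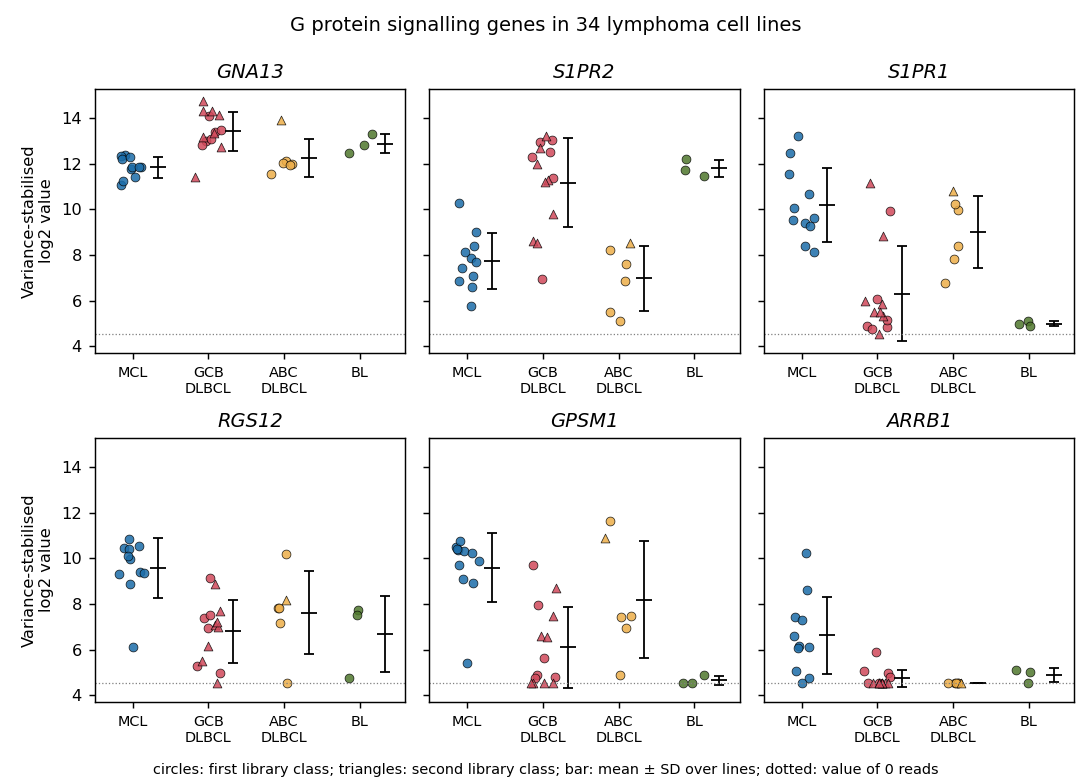
Variance-stabilised log2 values (vertical axis) of 6 G protein signalling genes in 34 lines by pathology, with mean ± SD over lines. S1PR2 and GNA13 have lower means in MCL than in GCB DLBCL, and S1PR1, RGS12, GPSM1 and ARRB1 have higher ones, with overlapping values.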

How the data were processed

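RNA sequencing values of 34 lymphoma cell lines, with 1 library per line, were used. The authors deposited variance-stabilised read counts per gene on a log2 scale. The submitters' processing notes name STAR 2.5.3a, R 3.6.1, DESeq2 1.26.0 and build GRCh38. The read counter and the annotation release are not given in the sources used here. The transform was inverted, and 100% of values in every library came out as whole reads (tolerance 0.05), which gave depths of 2.55 to 165 M reads (M for 1e+06). The transform compresses differences near the lowest value. Gene lengths were not used, so levels of different genes were not compared.

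Genes above the lowest value by more than 1 in at least 3 lines were kept (22167). One mean per pathology was fitted in R 4.3.3 using limma 3.58.1 and a trended prior. Benjamini-Hochberg adjustment ran over all tested genes within each contrast, and an adjusted p below 0.05 counted as a call. The fit was tested on simulated reads. Alternatives were the first library class, library class as a covariate, re-analysed lines only, median-centring, quantile normalization, no filter, limma-voom on recovered reads, only the 2 pathologies compared, and leaving out each line. Named were all 8 RGS genes, list genes past the threshold, and the 3 genes most correlated with each member. The 8 genes, the lists and the library classes were chosen with earlier results of these data known. Promoters came from RefSeq GRCh38.p14, and tables were handled in Python 3.11.15.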

Additional observations from a re-analysis of the deposited data

How the results depend on the processing

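The number of RGS genes past the threshold was small, so a single gene moved it. For MCL against the mean of the other pathologies it was 1, and 0 in limma-voom. For MCL against GCB DLBCL it was 2, and 1 over the first library class, with library class as a covariate and in limma-voom. For MCL against ABC DLBCL it was 0, and 1 among re-analysed lines, with 0 to 1 when single lines were left out. For MCL against BL it was 1, and 0 among re-analysed lines, without the filter and in limma-voom, with 0 to 1 when single lines were left out. For the F test it was 3, and 1 over the first class and with the covariate, with 1 to 3 when single lines were left out. The F test call of RGS14 was also lost with median-centring, without the filter and in limma-voom. In limma-voom that of RGS18 was lost as well, and RGS16 passed. In the other 3 contrasts it was 0 in every fit run. The cause of these changes was not tested, and the subsets also hold fewer lines. Of 56 member differences, the 12 with an unadjusted p below 0.05 kept their sign in all fits run, and 19 of the other 44 changed sign in at least 1, the largest of these being 0.70 in size. Median-centring moved the median difference of all genes for MCL against the mean of the other pathologies from -0.01 to -0.28, and the split of calls from 798 higher and 191 lower to 527 and 1097. For MCL against GCB DLBCL it moved the split from 2436 and 2809 to 1473 and 4429. Depth limits the GCB DLBCL values most, since 8 of the 14 libraries hold 2.55 to 4.84 M reads (M for 1e+06) and 1 read there is worth more on the log2 scale. No paired analysis was possible because each line is a separate culture and the replicate numbers only name the lines in order.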

Other observations

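The genes around the RGS genes of chromosome 1 were also read. Of 13 listed neighbours 10 passed the filter on low values, and in MCL against GCB DLBCL 1 was higher and 3 were lower by the limma test, beside the 23.7% called among all tested genes. GLUL, glutamine synthetase, was higher by 3.92 ± 1.14 (limma adjusted p 0.0144), RO60, listed under its older name TROVE2, was lower by -0.82 ± 0.29 (0.0364) and B3GALT2 by -1.12 ± 0.32 (0.0136). Over the first library class these were 1.72 ± 1.37, -0.37 ± 0.29 and -0.36 ± 0.20, and none of the 3 passed (limma adjusted p 0.573, 0.561 and 0.375). RGS8 was kept by the filter through groups other than MCL, so its test is not read further. It was the third that was lower, over all lines and over the first library class. CDC73 and UCHL5, which lie on the far side of RGS2, passed in neither, with means of 10.92 ± 0.36 and 11.49 ± 0.43 in MCL (n = 11) and 10.94 ± 0.40 and 11.44 ± 0.36 in GCB DLBCL (n = 14). RGS21, the gene between RGS18 and RGS1, was at 0 reads in all MCL and BL lines and had at most 35 reads in any line.

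GNG7, a gamma subunit gene, was at 10.23 ± 1.51 in MCL (n = 11) and 6.52 ± 2.78 in ABC DLBCL (n = 6), where the values ran from 4.77 over 5.25 to 11.90. Over all 34 lines MCL exceeded ABC DLBCL in GNG7 by 3.71 ± 1.01, which did not pass (limma adjusted p 0.079). Over the first class the difference was 4.78 ± 0.97 and passed (limma adjusted p 0.0177). Among ABC DLBCL lines the first class leaves out NU-DUL-1 alone, the line with the highest value of 11.90. The first-class call therefore came with the removal of that line.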
